A study of Mus musculus with 11 samples.

Results

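Alpha-amanitin blocks RNA polymerase II, and after 4 h the mouse embryonic stem cells (ESCs) of this study held less of their short-lived RNAs and a larger share of their long-lived ones. The comparison described here is the genotype by amanitin interaction: for each gene, the change over 4 h in Tet1/2/3 triple knockout (TKO) cells minus the change in wild type (WT) cells. A value above 0 means that the RNA fell less, or rose more, in TKO than in WT. It was computed from the 8 ribodepleted libraries among the 11 libraries of the series, with 12467 of 23284 genes passing a mean of 1 in scaled TPM (a length-corrected share of a library's transcripts, divided by a size factor per library), and it is reported by gene class and by abundance, length and exon number rather than as single-gene calls.

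The 4 groups were WT ESCs labelled non-treated (0 h), WT ESCs with 10 µg/ml α-amanitin for 4 h, TKO ESCs at 0 h and TKO ESCs with the same dose for 4 h, with 2 libraries each. All cells grew on gelatin in serum with leukemia inhibitory factor. The question behind the experiment was whether loss of the Tet enzymes, and with it of part of RNA 5-hydroxymethylcytosine (5hmC), goes with a different RNA stability. The study found the mark reduced in TKO cells but not abolished. The TKO cells came from a line made earlier by others, so genotype and cell line cannot be told apart, and p-values measure only the spread between the libraries of a group.

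The whole-read steps of the deposited TPM put library size between 25465881 and 29732475 reads on genes. All 10 ESC markers were above 1 scaled TPM. Tet1 measured 143.2 and 123.8 scaled TPM in untreated WT cells, against 29.9 and 30.2 in untreated TKO cells. Tet2 stood at 55.5 and 48.1 against 7.73 and 7.17, whereas Tet3 lay between 1.17 and 1.51 in every library. The summed trophectoderm markers were higher in TKO (933 to 1143 scaled TPM) than in WT (135 to 192), those of primitive endoderm lower (24.7 to 25.6 against 56.8 to 62.1), and the neural sum was also lower (165 to 183 against 217 to 230), while fibroblast markers stayed between 18.1 and 25.6. Lama1 alone held 51.2 to 57.0 scaled TPM in WT and 20.5 to 20.9 in TKO, and so made up most of the primitive endoderm sum. Only 3 of 8 primitive endoderm markers and 3 of 6 trophectoderm markers had a mean over 1 scaled TPM. The part of these marker differences in the results was not tested.

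As background, an RNA whose synthesis stops falls at the pace of its own decay. Replication-dependent histone mRNAs end in a stem-loop in place of a poly(A) tail and are made and degraded with the S phase of the cell cycle. Small nucleolar RNAs (snoRNAs) guide the modification of ribosomal RNA and are mostly cut from introns of host genes. Messages of ribosomal proteins, respiratory chain subunits and metabolic enzymes are long-lived, and in TPM, which are shares of a fixed total, such messages rise when others fall. A change common to all RNAs cannot be seen on this scale.

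No gene was called for the interaction, where a call was a Benjamini-Hochberg adjusted p under 0.05 (limma) with a change over 1.5-fold (0.0% higher and 0.0% lower), and no gene had an adjusted p under 0.05 whatever its size. At an unadjusted p under 0.05, 506 genes were higher (4.06%) and 434 lower (3.48%). In WT, 251 genes were called lower (2.01%) and 11 higher (0.0882%) after amanitin, and in TKO 20 were called lower (0.16%) and 0 higher (0.0%). Without TKO 4 h replicate 1 the TKO count was 144, and without TKO 4 h replicate 2 it was 3. The 2 replicate numbers carry no stated pairing, so classes are described by both numbered pairs and by all combinations of 1 library per group. The interaction was above 0 in both pairs for 2856 genes (22.9%) and below 0 in both for 3542 (28.4%). Every TKO change lay above every WT change, over the 4 combinations per genotype, for 1272 genes (10.2%) and below for 1727 (13.9%). At an adjusted p under 0.05 whatever the size, the WT counts were 1964 lower (15.8%) and 2735 higher (21.9%). In TKO they were 33 lower (0.265%) and 0 higher (0.0%). At an unadjusted p under 0.05 (limma), 2622 genes fell and 3492 rose in WT, against 1400 and 1713 in TKO. The adjustment was made per genotype. An adjusted p near 0.05 went with an unadjusted p near 0.019 in WT and near 0.00012 in TKO (limma). Counts at an adjusted p, also those by class below, therefore cannot show how much smaller the TKO response was. The median interaction over all tested genes was -0.015 on the log2(scaled TPM + 1) scale, which applies to every change and interaction given here. It was 0.04 with deposited TPM and 0.06 with size factors from long-lived classes, and the genes above and below 0 in both pairs were then 3218 and 1943, and 2496 and 895. Which side of 0 held more genes thus depended on the scaling, and so did the sign of the median in 11 of 33 classes over these scales and quantile normalisation.

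**Figure D1:**
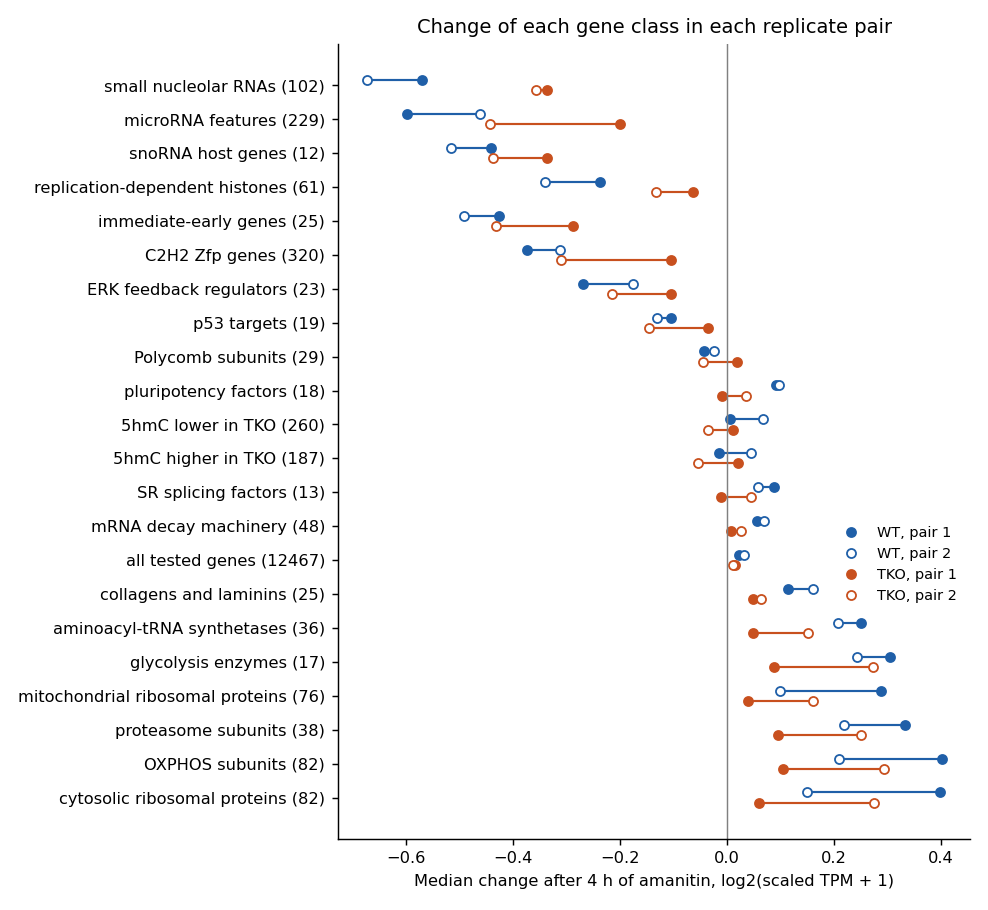
Median change after 4 h of α-amanitin, as log2(scaled TPM + 1), in each of 2 replicate pairs of WT (blue) and TKO (orange) for 22 gene sets, with the number of tested genes in brackets and lines joining the pairs. The medians of histones and snoRNAs were nearer to 0 in both TKO pairs than in either WT pair, whereas the cytosolic ribosomal protein medians of the genotypes overlapped.

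Replication-dependent histones had nearly the same median interaction in both numbered replicate pairs. The numbers carry no stated pairing, so this closeness, and the SD of the pairs, may differ if libraries are paired otherwise. Of 68 listed histone genes, 61 were tested, with a mean of 60.6 to 22949 reads per library. Their median change was -0.24 and -0.34 in the 2 WT pairs and -0.06 and -0.13 in the TKO pairs, and the median interaction was 0.20 ± 0.02 (SD of 2 pairs, 0.18 and 0.21). The interaction was above 0 for 59 of 61, above 0 in both pairs for 55 and below 0 in both for 0. At an adjusted p under 0.05 (limma, Benjamini-Hochberg), 42 of 61 fell in WT and 1 fell in TKO, where this threshold was stricter. For 36 of 61 every TKO change lay above every WT change, and for 0 every one lay below. At an unadjusted p under 0.05, 31 were higher and 0 lower, while the smallest adjusted p among them was 0.61 (limma, Benjamini-Hochberg).

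Their starting levels differed as well. Histone messages were lower in TKO than in WT at 0 h, by a median of -0.38, and at 4 h by -0.17. Relative to each gene's mean over the 8 libraries, the class median of the WT libraries was 0.20 and 0.36 before and -0.04 and 0.004 after amanitin. For the TKO libraries it was -0.11 and -0.07 before and -0.16 and -0.21 after. All TKO libraries thus lay below all WT libraries, and the distance was smaller after amanitin. Over all library combinations the class level changed by -0.40 to -0.20 in WT and by -0.14 to -0.05 in TKO.

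**Figure D2:**
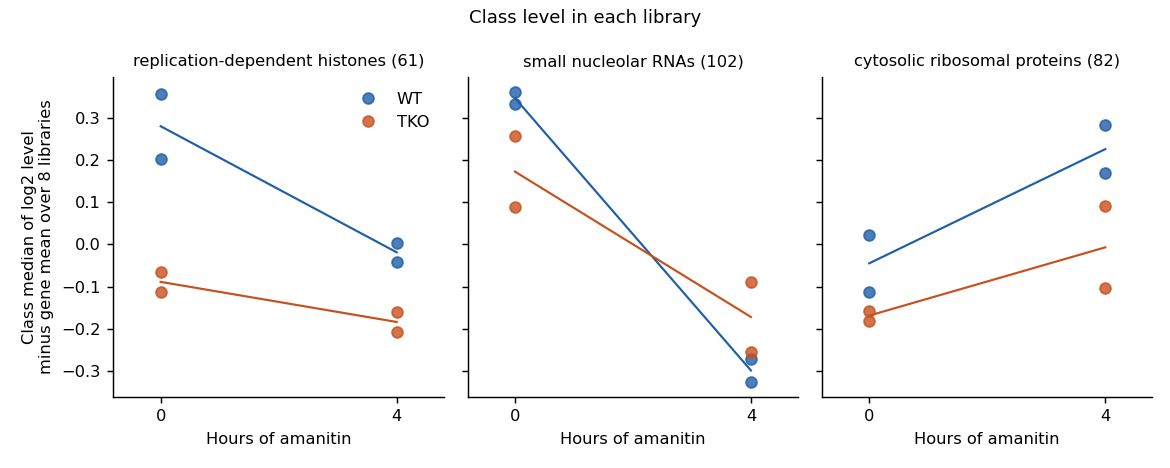
Class median of each library, as log2(scaled TPM + 1) minus the mean of each gene over 8 libraries, at 0 and 4 h of α-amanitin in WT (blue) and TKO (orange), with lines joining group means. Histone levels were lower in TKO at 0 h and the class line is less steep there, the snoRNA lines run down in both genotypes, and the TKO 4 h libraries stood apart from each other for ribosomal proteins.

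The stem-loop by which these messages are processed was read from the NCBIM37 genome (mm9), because it sets the class apart from polyadenylated mRNAs. The motif GGNNNTNNTNANNNCC, searched on both strands of the 150 genome bases after the stop codon, was present on the sense strand for 55 of the 59 tested histone genes with an annotated stop codon, 22 to 56 bases after it, and on the antisense strand for 2. The same window held it on the sense strand in 0.766% of 11614 other tested genes, and on the antisense strand in 0.749%. The sites of the most abundant tested member of each family that had one are shown with the motif in capitals.
Hist1h1a: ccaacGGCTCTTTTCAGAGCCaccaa
Hist1h2ak: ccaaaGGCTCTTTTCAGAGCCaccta
Hist1h2bb: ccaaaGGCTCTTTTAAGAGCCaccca
Hist1h3e: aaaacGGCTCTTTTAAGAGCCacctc
Hist1h4d: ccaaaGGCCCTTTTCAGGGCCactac

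These sites lie at chr13:23856256-23856281 (plus strand), chr13:21845246-21845271 (minus), chr13:23839067-23839092 (plus), chr13:23653767-23653792 (minus) and chr13:23673814-23673839 (plus), in the order shown. The motif took 8 forms among the 55 sites. The letters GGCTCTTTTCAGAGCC stood in 5 of the H1, 11 of the H2A, 9 of the H2B and 7 of the H3 sites, while all 12 H4 sites had other letters, 7 of them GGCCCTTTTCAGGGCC. Genes with the same 16 letters differed in the interaction, from -0.09 for Hist1h2af to 0.39 for Hist1h2aa, both H2A genes. The 4 searched histone genes without a motif in this window had interactions of 0.15 to 0.71, against a median of 0.18 for the 55 with it, and all 4 were above 0 in both pairs. The other 2 tested histone genes had no annotated stop codon and were not searched. The 89 other genes with the motif had a median of -0.03.

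The histone families differed in size and in the spread between libraries. H1 genes, which encode the linker histone, had a median interaction of 0.27 with 6 of 6 above 0 in both pairs. H4 (0.24, 12 of 12) and H2B (0.21, 17 of 17), both core histones, were alike in this, and in each of the 3 families the class level did not overlap between genotypes. H3 (0.12, 11 of 12) and H2A (0.11, 9 of 14) had smaller medians and overlapping levels. In H2A the WT pairs differed from each other, at -0.04 and -0.31. Copies of a family are nearly identical in their coding sequence, so reads may be split among them and the members are not independent.

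Hist1h4d, an H4 gene on chromosome 13 and the most abundant tested histone gene, measured 5076 and 5355 scaled TPM in WT before amanitin, then 4140 and 4184 after it. The TKO libraries held 4412 and 4324 before, then 4063 and 4014 after. The WT values fell to the TKO range, and the interaction was 0.21 ± 0.11 (SE, n = 2 per group; adjusted p = 0.687, limma). Hist2h2bb, an H2B gene on chromosome 3, stood at 4011 and 4171 in WT at 0 h, 3026 and 3124 in WT at 4 h, 3073 and 3108 in TKO at 0 h and 2904 and 2847 in TKO at 4 h. Its interaction was 0.31 ± 0.10 (SE, n = 2 per group; adjusted p = 0.662, limma), and the 4 TKO changes lay above the 4 WT changes for both genes.

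**Figure D3:**
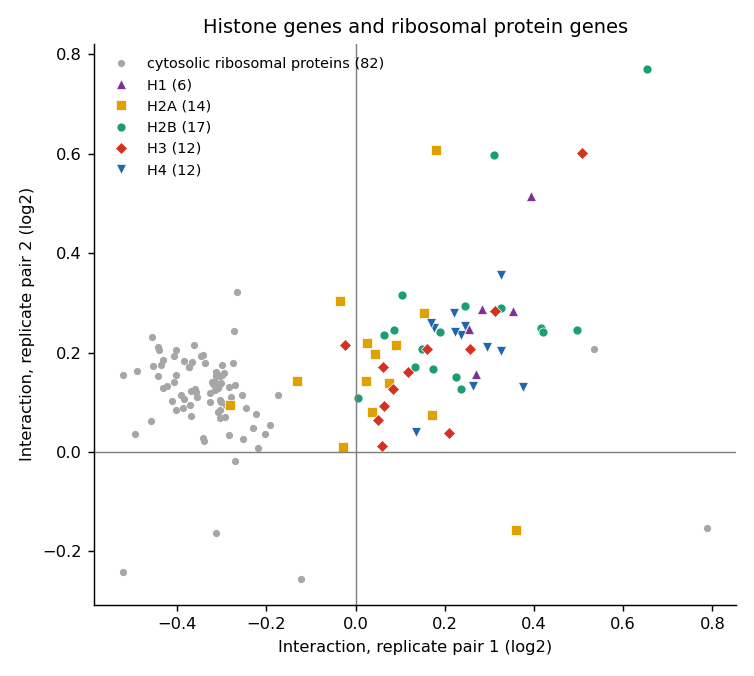
Interaction in replicate pair 1 (x axis) and pair 2 (y axis), both log2, for 61 histone genes by family and 82 cytosolic ribosomal protein genes (grey). Of the histone genes 55 lie in the upper right, while most ribosomal protein genes are below 0 in pair 1 and above 0 in pair 2.

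Lists of related function had other values. Replacement histones, which are made outside the S phase as well, had median changes of 0.29 and 0.15 in the WT pairs and 0.08 and 0.16 in the TKO pairs. Their median interaction was -0.11, with 0 of 11 above 0 and 7 below 0 in both pairs. DNA replication genes, such as those of the replicative helicase and polymerases, had a median of -0.05 with 6 of 49 above and 19 below 0 in both pairs. Genes for histone mRNA processing had a median of 0.06, with pairs of 0.13 and -0.03. These 3 lists were added after the class values had been seen.

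Changes were smaller in TKO than in WT over all tested genes, with a slope of 0.60 that is described below. The snoRNA features had the lowest median change of the classes with at least 10 tested members in WT, and a median nearer to 0 in TKO. Of 114 listed, 102 were tested, at a median of 93.4 reads per library. The median change was -0.57 and -0.67 in the WT pairs and -0.34 and -0.36 in the TKO pairs, and the median interaction was 0.28 ± 0.09 (SD of 2 pairs, 0.20 and 0.33). It was above 0 in both pairs for 56 and below 0 in both for 4. At an adjusted p under 0.05 (limma), 66 fell and 5 rose in WT, and 7 fell and 0 rose in TKO, where this threshold was stricter. For the interaction at an unadjusted p under 0.05, 29 were higher and 1 lower. The class level changed by -0.69 to -0.60 in WT and by -0.51 to -0.18 in TKO over all library combinations. The 67 with a mean of at least 50 reads had a median of 0.23 and the 35 with fewer 0.39. Without TKO 4 h replicate 1, the class median relative to all genes was 0.17 in place of 0.29, and without TKO 0 h replicate 1 it was 0.41.

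The kinds of snoRNA differed. Box C/D snoRNAs, which guide ribose methylation, had a median interaction of 0.32 (62 tested, 32 above and 3 below 0 in both pairs). Box H/ACA snoRNAs, which guide pseudouridylation, had 0.23 (32 tested, 21 above and 1 below). The 8 small Cajal body RNAs, which guide modification of spliceosomal RNAs, had median changes above 0 (0.33 and 0.09 in the WT pairs, 0.06 and 0.39 in the TKO pairs), and their median interaction was 0.05 with overlapping levels. The most abundant tested member of the whole class, Scarna2, stood at 1614 and 2125 scaled TPM in WT at 0 h and 2562 and 2273 at 4 h, against 1885 and 1772 in TKO at 0 h and 1917 and 2116 at 4 h. Its interaction of -0.24 ± 0.18 (SE, n = 2 per group; adjusted p = 0.704, limma) ran the other way from the class median, with overlapping changes.

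Of the 91 tested snoRNAs placed in the annotation, 82 lay within 60 host genes. These snoRNAs changed by a median of -0.65 in WT and -0.39 in TKO, whereas their host genes changed by 0.15 and 0.07. The interaction had a median of 0.27 for the snoRNAs and -0.07 for the hosts, so the values of feature and host had opposite signs. The 9 placed snoRNAs without a host changed by -0.06 in WT and -0.03 in TKO, with a median interaction of 0.03. Whether reads on snoRNA features came from mature snoRNAs or from unspliced host RNA was not tested.

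Of the 12 noncoding host genes named for their snoRNAs, Gas5 and the Snhg genes, all were tested. At an adjusted p under 0.05 (limma), 10 of these host genes fell in WT and 5 in TKO, where this threshold was stricter. Their median change was -0.44 and -0.52 in the WT pairs and -0.34 and -0.44 in the TKO pairs, the median interaction was 0.16 ± 0.06 (SD of 2 pairs), and 10 were above and 0 below 0 in both pairs. Snhg1 stood at 639 and 622 scaled TPM in WT at 0 h, 373 and 360 in WT at 4 h, 532 and 527 in TKO at 0 h and 406 and 325 in TKO at 4 h. Its fall was called in WT (-0.78, adjusted p = 0.00269, limma) but not in TKO (-0.54, adjusted p = 0.0551), and the interaction of 0.24 ± 0.13 (SE, n = 2 per group; adjusted p = 0.687) did not pass. Snhg3 went from 318 and 318 to 251 and 241 in WT and from 264 and 259 to 212 and 217 in TKO, with an interaction of 0.09 ± 0.06 (SE, n = 2 per group; adjusted p = 0.697, limma).

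MicroRNA features, mostly hairpin precursors embedded in longer transcripts, were read thinly, at a median of 5.62 reads per library, and 229 of 621 were tested. The median interaction was 0.19, but the pairs differed, at 0.38 and 0.08, and 83 were above and 39 below 0 in both. Of 180 placed, the 97 inside a host gene had a median interaction of 0.30 and the 83 outside one -0.01. Their hosts had -0.01.

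Genes for C2H2 zinc finger proteins, a large family of transcription factors with short-lived messages, rested on 1 pair. The 320 tested of 361 changed by -0.37 and -0.31 in the WT pairs and by -0.10 and -0.31 in the TKO pairs. The median interaction was 0.12, from 0.27 in pair 1 and -0.006 in pair 2, and 139 were above and 20 below 0 in both pairs. Without TKO 4 h replicate 1 the median relative to all genes was 0.04 in place of 0.14. Zfp42, a marker of ground-state ESCs also known as Rex1, stood at 497 and 482 scaled TPM in WT at 0 h, 397 and 406 in WT at 4 h, 117 and 113 in TKO at 0 h and 110 and 94.8 in TKO at 4 h. Its interaction was 0.12 ± 0.10 (SE, n = 2 per group; adjusted p = 0.72, limma), with changes that overlapped. Immediate-early genes, which signalling switches on within minutes, had a median of 0.10 over 25 tested, with 11 above and 4 below 0 in both pairs and overlapping levels. Medians were 0.02 for ERK feedback regulators (23 tested), 0.02 for p53 targets (19), -0.02 for pluripotency factors (18) and -0.01 for Polycomb subunits (29), and all but that of p53 targets had the other sign under at least 1 other scaling.

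Long-lived classes had median changes above 0 in both genotypes, and their class levels overlapped between genotypes for most of them. Cytosolic ribosomal protein genes (82 tested of 84) had median changes of 0.40 and 0.15 in the WT pairs and 0.06 and 0.28 in the TKO pairs. At an adjusted p under 0.05 (limma), 61 rose and 1 fell in WT and 0 changed in TKO, where this threshold was stricter. The median interaction was -0.10, but the pairs had opposite signs, at -0.32 and 0.13, and 1 gene was above and 4 below 0 in both. With the replicate numbers crossed, 92.7% of them were below 0 in both pairs in place of 4.88%, so the count depends on how libraries are paired. Rplp1, an acidic stalk protein of the ribosome, stood at 4749 and 5221 scaled TPM in WT at 0 h, 6402 and 5925 in WT at 4 h, 4650 and 4714 in TKO at 0 h and 5003 and 5737 in TKO at 4 h. The TKO libraries at 4 h were far apart, and the interaction was -0.11 ± 0.14 (SE, n = 2 per group; adjusted p = 0.816, limma).

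The same held for respiratory chain and ATP synthase subunits (median -0.11, pairs -0.28 and 0.09), mitochondrial ribosomal proteins (-0.09, -0.24 and 0.06, with a median of 0.002 under size factors from long-lived classes) and the proteasome (-0.10, -0.22 and 0.03). Glycolysis enzymes had -0.10 with pairs of -0.19 and -0.003. Aminoacyl-tRNA synthetases, which charge tRNAs for translation, were the class in this set with levels that did not overlap. Their median change was 0.25 and 0.21 in the WT pairs and 0.05 and 0.15 in the TKO pairs. At an adjusted p under 0.05 (limma), 26 rose in WT and 0 in TKO, where this threshold was stricter. Of 36 tested, 24 were below and 2 above 0 in both pairs, and the median was -0.12 with pairs of -0.18 and -0.05. At an unadjusted p under 0.05, 6 were lower and 0 higher. Gars, the glycyl-tRNA synthetase, stood at 282 and 289 scaled TPM in WT at 0 h, 352 and 355 in WT at 4 h, 376 and 369 in TKO at 0 h and 387 and 432 in TKO at 4 h, an interaction of -0.17 ± 0.08 (SE, n = 2 per group; adjusted p = 0.677, limma).

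Genes whose mRNAs have lower 5hmC in TKO bear on the question of the study. The list, taken from its differential peak table, held genes with lower 5hmC peaks and none higher, and 260 of 312 present were tested. Their median change was 0.01 and 0.07 in the WT pairs and 0.01 and -0.04 in the TKO pairs. The median interaction was -0.05, with pairs of 0.002 and -0.08 (0.006 with deposited TPM and 0.04 with size factors from long-lived classes), and 41 were above and 102 below 0 in both pairs. Genes with higher 5hmC peaks only (187 tested) had -0.05 (0.01 and 0.04 on these scales), with 19 above and 68 below. Exon number moved with membership. Among genes with 10 or more exons 74 of 175 listed genes were below 0 in both pairs, as were 2042 of all 5520, and among those with fewer 28 of 84 were, as were 1457 of 6693. Eed, a Polycomb subunit, stood at 289 and 283 scaled TPM in WT at 0 h, 304 and 299 in WT at 4 h, 195 and 189 in TKO at 0 h and 197 and 191 in TKO at 4 h. The level differed between genotypes, while the interaction was -0.06 ± 0.06 (SE, n = 2 per group; adjusted p = 0.754, limma) and had the other sign under 2 other scalings. Jarid2, a PRC2 cofactor, had -0.10 ± 0.08 (adjusted p = 0.731, limma) and Dab1, a reelin pathway adaptor, -0.10 ± 0.14 (adjusted p = 0.837). By qPCR against ribosomal RNA, the study found Eed, Jarid2 and Dab1 less stable in WT than in TKO. There, wild-type Tet2 restored the destabilisation in TKO and a catalytic mutant did not. In knock-in cells, the study found that Tet2 lowered pluripotency transcripts and Tet2 without its RNA-binding domain did not. The qPCR reference differs from the library shares used here, so those values are not directly comparable.

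The interaction followed abundance, mainly in pair 1. Genes with a mean of 1 to 2 scaled TPM had a median of 0.03 and those over 300 had -0.11. In pair 1 the median went from 0.07 to -0.24 between these bins, and in pair 2 from -0.004 to 0.04. Of the 1179 genes between 100 and 300, 555 were below and 87 above 0 in both pairs. Among the 476 over 300, 167 were below and 47 above. Without TKO 4 h replicate 1 the median of the highest bin relative to all genes was -0.02 in place of -0.09.

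Length and exon number separated at their short end. Features under 200 bases of exon had a median of 0.24 (pairs 0.33 and 0.22), with 120 above and 32 below 0 in both pairs of 269. The other 5 length bins had medians of -0.05 to -0.003. Single exon genes had 0.12 (0.16 and 0.09) and those with 20 or more exons -0.04 (0.0004 and -0.08). Much of the single exon value lay in the small RNA and histone classes: the 259 single exon genes outside them had 0.04, with 90 above and 54 below 0 in both pairs. Genes with 2 to 4 exons outside these classes had 0.04, with 716 above and 389 below of 2321. Long noncoding genes had 0.10, with 96 above and 29 below of 219. Bins of GC content had medians of -0.04 to 0.02, and bins by the number of ATTTA pentamers in the 3′ UTR, a motif of unstable mRNAs, had -0.04 for genes with none and 0.01 for those with 8 or more.

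**Figure D4:**
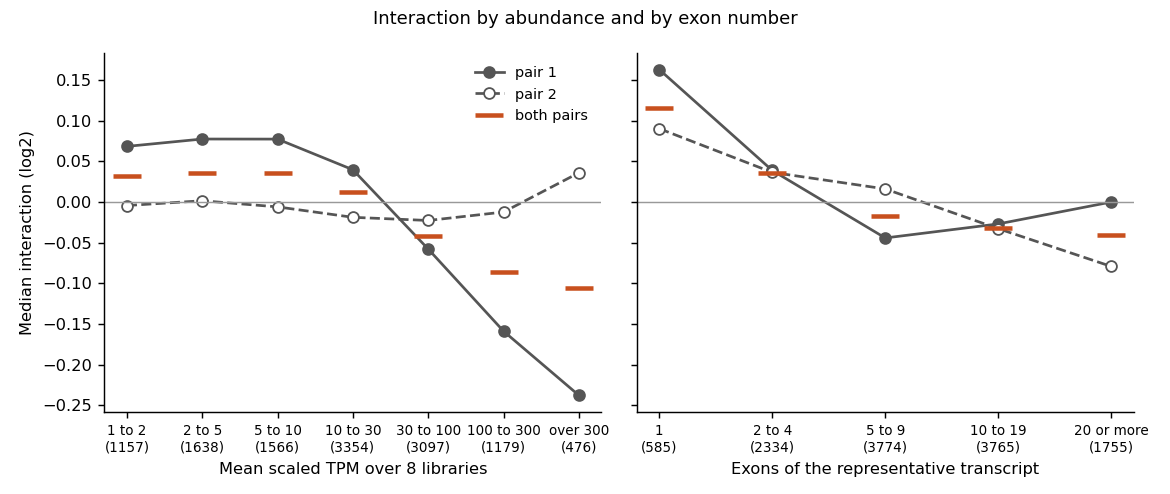
Median interaction (log2) by mean scaled TPM and by exon number of the representative transcript, in pair 1 (filled), pair 2 (open) and both (bars), with the number of genes in brackets. The abundance gradient is seen in pair 1 and not in pair 2, whereas single exon genes are above 0 in both.

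The size of the TKO response relative to WT was summarised by a slope across genes, for which 1 WT pair served as instrument for the other so that noise in WT does not lower it. The slope was 0.60 ± 0.31 (SD of 2 TKO pairs), at 0.38 in TKO pair 1 and 0.82 in pair 2. Genes are not independent replicates, so it has no p-value. Over abundance bins it lay between 0.57 and 0.66, over exon number bins between 0.57 and 0.65 and over bins of GC content between 0.56 (55 to 60%) and 0.74 (over 60%), and outside the small RNA and histone classes it was 0.61. In every bin the slope of pair 1 was below that of pair 2. Within C2H2 zinc finger genes the slope was 0.57 ± 0.33 (SD of 2 TKO pairs). Smaller changes in TKO were thus not particular to the classes above. Median changes in WT and TKO were -0.64 and -0.38 for snoRNAs and -0.35 and -0.21 for zinc finger genes. They were 0.28 and 0.16 for cytosolic ribosomal proteins and -0.27 and -0.09 for histones. Whether any class differed from the slope over all genes was not tested.

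Genes ranked by 1 WT pair were then read in the libraries that did not set the ranking. In the lowest decile by WT pair 1, the median change was -0.37 in WT pair 2, -0.15 in TKO pair 1 and -0.34 in TKO pair 2. In the highest decile it was 0.19, 0.09 and 0.24. Ranked by WT pair 2, in the lowest decile the median was -0.43 in WT pair 1, -0.15 in TKO pair 1 and -0.33 in TKO pair 2, and in the highest 0.26, 0.09 and 0.19. TKO pair 1 thus moved less in both directions, while TKO pair 2 lay close to WT in the first ranking and below it in size in the second.

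**Figure D5:**
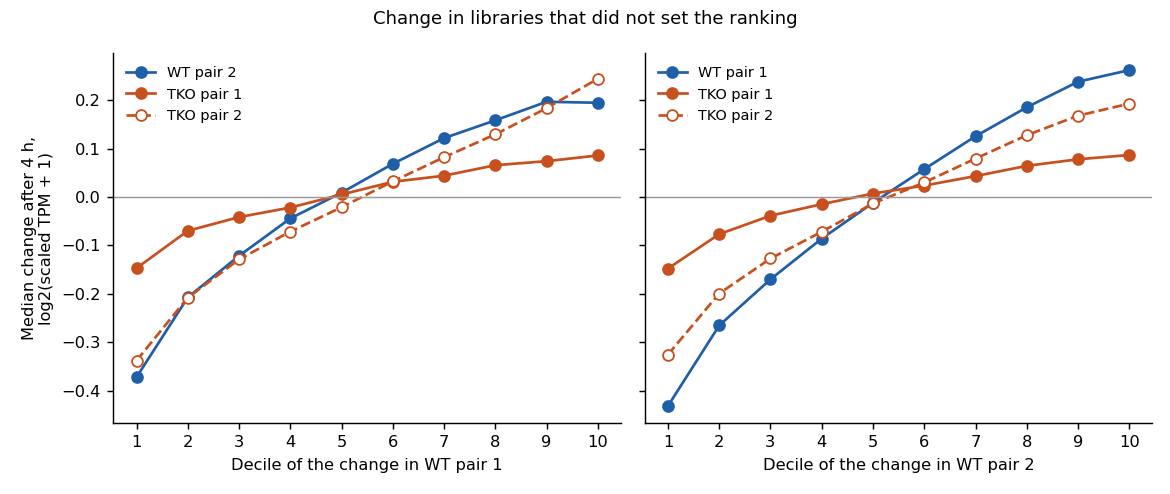
Median change after 4 h of α-amanitin, as log2(scaled TPM + 1), for deciles of the tested genes ranked by the change in 1 WT pair (x axis), in the other WT pair (blue) and in both TKO pairs (orange). TKO pair 1 spans -0.15 to 0.09 in both panels, and TKO pair 2 lies nearer to WT.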

How the data were processed

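Each deposited file held 1 TPM value per gene. The authors derived TPM from HTSeq counts of genes after AfterQC filtering, removal of ribosomal and transfer RNA reads with Bowtie2, Trimmomatic trimming and STAR alignment to mm9 with RefSeq genes. Tool versions and the strand setting of counting are not given in the sources used here, so overlapping and antisense genes are uncertain. The 3 polyA libraries were not used.

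TPM were scaled by size factors (median of ratios), and log2(scaled TPM + 1) of the 8 libraries was fitted with limma 3.58.1 (R 4.3.3, lmFit and eBayes with trend, 4 group coefficients), for genes with a mean scaled TPM over 1. The pseudocount of 1 TPM understates the change of low genes. P-values are two-sided. Whole reads were recovered for 100% of 19470 genes above 0 (within 0.01 reads, apart from any divisor that a gene's values all share), for depth and for voom as an alternative. The code recovered known shifts in simulated data. The simulated replicates differed only in depth and random count noise. The simulation therefore does not show how small an interaction these libraries could detect.

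Class members were found by gene symbol. Members, classes and lists were chosen with earlier results of these data known. Genes were named by a rule: the 2 most abundant tested members of a class, the Tet genes, and Eed, Jarid2 and Dab1, from which those with values here were taken. Hist1h2af, Hist1h2aa and the genes whose stem-loop is printed were chosen after their values were seen. Lengths, exons and biotypes came from GENCODE vM1 (NCBIM37), matched by symbol for 21897 genes. Around the group means, libraries with the same number correlated at -0.044 to 0.119, and nothing states that the numbers pair libraries. Class medians and slopes carry no test, since genes are not replicates. Alternatives were deposited TPM, other scalings, pseudocounts, filters, a replicate block, crossed pairs, voom and leaving out each library.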

Additional observations from a re-analysis of the deposited data

Results flagged for a closer look

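Pluripotency factors are 18 transcription factors and cofactors that maintain the ESC state. With the main size factors they moved in opposite directions in the genotypes over all library combinations, and the difference was not tested. The class level changed by 0.03 to 0.09 in WT and by -0.13 to -0.0003 in TKO. With deposited TPM the median change of all genes went from 0.03 to -0.11 in WT and from 0.01 to -0.07 in TKO. The opposite directions may thus depend on the scaling. The median interaction was small, at -0.024 (0.04 with deposited TPM), with 3 genes above and 7 below 0 in both pairs.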

How the results depend on the processing

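Class medians of the interaction were recomputed relative to the median of all genes, and 1145 of 1265 values for classes, bins and counts stayed within the spread of the 2 pairs or within 1.5 times a count. The 1145 include class and bin medians under the replicate block and without the variance trend, which could not change. Deposited TPM shifted the median change of all genes from 0.03 to -0.11 in WT, and size factors from long-lived classes shifted it to -0.19, and the median interaction of all genes changed sign from -0.015 to 0.04 and 0.06. Without centring on all genes, an alternative chosen after seeing the data, 11 of 33 class medians changed sign across the 4 scalings, among them both 5hmC lists. Relative to all genes, the histone median was 0.21 and the snoRNA median 0.29, and with quantile normalisation the histone median was 0.27. Leaving out each library in turn, the histone median ranged from 0.17 to 0.27, the snoRNA median from 0.17 to 0.41, the ribosomal protein median from -0.19 to 0.003 and the median of genes with lower 5hmC from -0.05 to -0.009. The same settings gave 0 to 8 interaction calls, 151 to 294 WT calls, 0 to 144 TKO calls, 320 to 1121 genes higher and 180 to 1409 lower for the interaction at an unadjusted p under 0.05, and, without a TKO library, slopes of 0.38 to 0.83. With WT libraries left out the slope could not be computed. A group left with 1 library is assumed to vary like the others.

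The 262 WT calls became 124 with features of at least 200 bases, 589 with deposited TPM, 990 with size factors from long-lived classes, 407 and 148 with pseudocounts of 0.1 and 5 TPM and 412 with voom on recovered reads. The 20 TKO calls became 53 with deposited TPM and with voom, 77 with size factors from long-lived classes, 4 without a filter, 0 without the variance trend and 1 with a pseudocount of 0.1. Interaction calls rose to 4 without a filter, and genes lower at an unadjusted p under 0.05 numbered 116 with deposited TPM, 48 with size factors from long-lived classes and 691 without a filter. The replicate block gave 0 interaction calls, 273 WT calls and 18 TKO calls. Class medians are taken from the library values and not from the fit, so neither the block nor leaving out the variance trend could change them.

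Sign changes of classes and bins were counted only where both pairs shared a sign and the median was above a minimum size. For named genes they were counted only where the interaction exceeded its SE. Classes whose pairs disagreed, such as ribosomal proteins, could not be listed. Relative to all genes, the values counted were the median of collagens and laminins without a filter (0.015) and that of genes at 5 to 10 scaled TPM with quantile normalisation (-0.0013). Among named genes, sign changes were seen for Id3 with 1 library left out (lowest -0.00898, highest 0.278), Eed with size factors from long-lived classes (0.028) and quantile normalisation (0.024), Mrpl18 under the same settings (0.0090 and 0.0055), and Pabpc1 (0.0058) and Lsm3 (0.0015) with quantile normalisation. The cause of these differences was not tested. With 2 libraries a group, and TKO 4 h replicate 1 nearer to 0 h than replicate 2, interactions of the size seen for most classes could not be told from the spread between libraries.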
